A study of Homo sapiens with 2 samples.

Results

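The NRF2 antioxidant response genes were 10 genes listed by name, NFE2L2, KEAP1, GCLC, GCLM, TXNRD1, SRXN1, NQO1, HMOX1, AKR1B10 and AKR1C1, and all 10 were found among the 26228 gene names present in both expression tables. The genes are known members of the pathway, and the list was drawn up with earlier results of these data known. RNA was sequenced from PLC cells, a human liver cancer line, in 2 groups of 1 library each. The EV group carried the empty vector on a wild-type background, and the PRSS35 group over-expressed PRSS35, a secreted protein of the serine protease family; per the study's methods the stable cells were made by lentiviral infection and puromycin selection, and neither group received a further treatment. Since each group is 1 library, the values carry no replicate error, no p-values are printed, and what separates the groups cannot be told apart from what separates 2 cultures. Levels are FPKM, fragments per kilobase of transcript scaled to the mapped fragments of the library, and the interval after each is the pair of bounds that Cufflinks deposited with it, which covers counting and assignment error within that library only.

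NRF2, the product of NFE2L2, is a transcription factor that is held low in unstressed cells because KEAP1 binds it and presents it to a ubiquitin ligase. Electrophiles and oxidants modify cysteines of KEAP1, NRF2 then accumulates, pairs with a small MAF protein and binds antioxidant response elements near genes for glutathione synthesis, thioredoxin reduction, quinone and carbonyl reduction, and haem breakdown. The pathway is active in some liver cancers through mutation of NFE2L2 or KEAP1. Since NRF2 is controlled mainly as a protein, the level of its own transcript is no measure of its activity.

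The antioxidant response element is shown first because it is what ties these genes together. Its core, TGACNNNGC, was searched on both strands in the 250 bases before each start in the RefSeq promoter table (GRCh38.p14), where 8 of the 10 members have an entry; HMOX1 and AKR1B10 have none there. It was found for 3 members, GCLM, KEAP1 and TXNRD1, in 4 of 11 member windows, and in 10.9% of all 35093 windows of this length. Each match is printed 5′ to 3′ on the gene's strand with 10 bases on either side, the core in capitals (GCNNNGTCA where the core lies on the other strand), at its position in GRCh37, the assembly of hg19, found by exact match of the window.
GCLM, minus strand, chr1:94375002-94375030: tacgatttctGCTTAGTCAttgtcttcca
KEAP1, minus strand, chr19:10613460-10613488: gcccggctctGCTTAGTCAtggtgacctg
KEAP1, minus strand, chr19:10613483-10613511: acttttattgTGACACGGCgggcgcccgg
TXNRD1, plus strand, chr12:104609448-104609476: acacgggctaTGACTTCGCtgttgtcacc
TXNRD1, plus strand, chr12:104680698-104680726: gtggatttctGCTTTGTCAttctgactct
GCLM and the first KEAP1 window hold the same 9 bases. A match describes letters only, and elements farther from the start are not in these windows.

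Of the 10 members, 0 were higher and 0 were lower in PRSS35 cells by 2-fold or more on the log2(FPKM + 1) scale, where the 11118 genes counted as expressed (mean FPKM 1 or above) gave 2.73% higher and 2.48% lower. AKR1C1, an aldo-keto reductase that acts on steroids and carbonyls, was the only member past 1.5-fold, at an FPKM of 53.6 in EV and 82.3 in PRSS35 cells. By that threshold 5.23% of expressed genes were higher and 4.27% were lower. The bounds of EV and PRSS35 lay apart for 2 members: AKR1C1 was higher and GCLM, the modifier subunit of glutathione synthesis, was lower. Among expressed genes, 25.2% had intervals apart with the higher value in PRSS35 cells and 15.5% with the lower. The other 8 members had overlapping intervals. Centred on the median gene, 3 members had intervals apart, the third being HMOX1, which was then lower with a log2 change of -0.13. The median log2 change of the 10 members was 0.07, and that of the 9 expressed members was 0.06, equal to the 0.06 of all expressed genes.

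**Figure D1:**
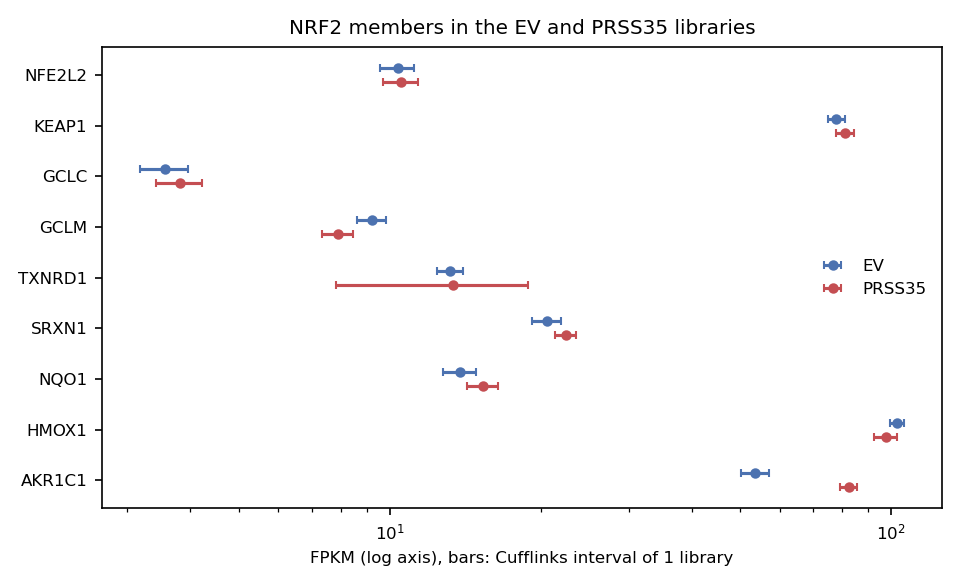
FPKM of the 9 expressed members in the EV and PRSS35 libraries on a log axis; points are the deposited values and bars the Cufflinks interval of that 1 library. The levels ran from 3.57 for GCLC to 102.9 for HMOX1 in EV cells, and the bars of each pair overlap except for AKR1C1, which is higher, and GCLM, which is lower in PRSS35 cells.

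The transcripts of the sensor and the factor had overlapping intervals in the 2 libraries. NFE2L2, on chromosome 2 from 178095031 to 178129859 of hg19, minus strand, had 10.4 FPKM (9.58 to 11.2) in EV and 10.5 (9.71 to 11.4) in PRSS35 cells. Its log2 change was 0.02, with an interval of -0.13 to 0.16 from the bounds of both libraries. KEAP1, on chromosome 19 from 10596796 to 10614054, minus strand, had 77.8 FPKM (74.7 to 80.8) in EV and 80.9 (77.6 to 84.3) in PRSS35 cells. The log2 change of KEAP1 was 0.06 (interval -0.02 to 0.14). Per length of transcript, KEAP1 was thus 7.49 times the level of NFE2L2 in EV and 7.68 times in PRSS35 cells. KEAP1 was among the more abundant transcripts, at rank 1837 of all names in EV and 1778 in PRSS35 cells.

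Glutathione is made in a first, rate-limiting step by glutamate-cysteine ligase, with GCLC as the catalytic and GCLM as the modifier subunit. GCLC, on chromosome 6 from 53362140 to 53409927, minus strand, was the lowest of the expressed members, with an FPKM of 3.57 (interval 3.18 to 3.96) in EV and 3.82 (interval 3.42 to 4.23) in PRSS35 cells, and the intervals overlapped over most of their length. GCLM, on chromosome 1 from 94350756 to 94375154, minus strand, had 9.23 FPKM (8.597 to 9.86) in EV and 7.90 (7.33 to 8.46) in PRSS35 cells. The PRSS35 value was 0.856 times that of EV, a log2 change of -0.20 (interval -0.33 to -0.07). Of the 3202 genes with a mean FPKM of 5 to 20, 11.0% had intervals apart with the lower value in PRSS35 cells. The log2 change of GCLC was 0.08, and its interval of -0.10 to 0.25 held 0. GCLM over GCLC was 2.58 in EV and 2.06 in PRSS35 cells. When each library was instead scaled to its summed FPKM, the log2 change of GCLM turned to 0.44, below the 0.68 of the median expressed gene under that scaling.

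The thioredoxin system reduces protein disulfides and peroxides at the expense of NADPH. TXNRD1, the cytosolic thioredoxin reductase, on chromosome 12 from 104609557 to 104744085, plus strand, had 13.2 FPKM (12.4 to 13.98) in EV and 13.3 (7.83 to 18.9) in PRSS35 cells. The ratio was 1.01, but the PRSS35 interval was 41.3% of the value on the upper side against 5.88% in EV, so a log2 change anywhere from -0.55 to 0.57 lay within the bounds. SRXN1, sulfiredoxin, which repairs over-oxidized peroxiredoxins, on chromosome 20 from 627268 to 634014, minus strand, had 20.6 FPKM (19.3 to 21.96) in EV and 22.5 (21.4 to 23.6) in PRSS35 cells. These intervals overlapped at their edges, with a log2 change of 0.12. The interval of that change, 0.01 to 0.23, lay just above 0 but held the 0.06 of the median expressed gene. SRXN1 shares 90.6% of its 50-base transcript stretches with another protein-coding gene of GENCODE on the same strand (ENSG00000270299), so its fragments cannot be assigned between them by sequence.

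NQO1, the quinone reductase used as the standard readout of NRF2, had 13.8 FPKM (12.8 to 14.9) in EV and 15.4 (14.2 to 16.5) in PRSS35 cells. It lies on chromosome 16 from 69743304 to 69760571, minus strand, and its log2 change was 0.14 (interval 0.002 to 0.29). That interval lay just above 0 but held the 0.06 of the median expressed gene, and the intervals of the 2 libraries overlapped. A long noncoding RNA on the other strand (ENSG00000261602) covers 20.8% of the exonic bases of NQO1 within the locus; the library kit named by the study does not mark strand, so reads of the pair cannot be told apart there. HMOX1, haem oxygenase 1, which also answers to haem, heat and BACH1, was the most abundant member in both libraries. On chromosome 22 from 35777060 to 35790207, plus strand, it had 102.9 FPKM (99.7 to 106.0) in EV and 97.8 (92.7 to 102.8) in PRSS35 cells. Its log2 change of -0.07 (interval -0.16 to 0.01) went with intervals that overlapped as deposited and lay apart once centred on the median gene.

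The aldo-keto reductases gave the largest log2 change of the list and its only member that was not expressed. AKR1B10, a retinal and aldehyde reductase used as a marker of NRF2 activity in liver tumours, was listed at 0 in EV and at an FPKM of 0.0723 (interval 0 to 0.156) in PRSS35 cells, whose bounds correspond to 3 fragments. It was therefore at or under a floor of 3 fragments in both libraries and is given no fold change. Its paralog AKR1B15, beside it on chromosome 7, was listed at 0 in both. AKR1C1, on chromosome 10 from 5005454 to 5020158, plus strand, had 53.6 FPKM (50.3 to 57.0) in EV and 82.3 (79.2 to 85.4) in PRSS35 cells. The PRSS35 level was 1.53 times that of EV, a log2 change of 0.61 (interval 0.51 to 0.71). Of the 1596 genes with a mean FPKM of 50 to 200, 30.0% had intervals apart with the higher value in PRSS35 cells and 5.14% were higher by 1.5-fold or more.

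AKR1C3, a prostaglandin and steroid reductase of the same cluster, had intervals apart in the same direction as AKR1C1. Its FPKM was 25.8 (interval 23.6 to 27.9) in EV and 40.9 (interval 37.9 to 43.96) in PRSS35 cells. Its log2 change was 0.65 (interval 0.49 to 0.80). AKR1C1 over AKR1C3 was 2.08 in EV and 2.01 in PRSS35 cells. AKR1C2, which lies between them, was low, with an FPKM of 3.21 (interval 2.81 to 3.61) in EV and 3.78 (interval 3.35 to 4.22) in PRSS35 cells, and the intervals overlapped. AKR1C1 was 16.7 times the level of AKR1C2 in EV and 21.8 times in PRSS35 cells. These 2 genes share 24.6% of the 50-base stretches of AKR1C1's annotated transcripts and 35.2% of those of AKR1C2, so the split of fragments between them is uncertain; AKR1C1 and AKR1C3 share 1.53% of the stretches of AKR1C1.

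The upstream sequences of the cluster are printed because its genes differ in level, and AKR1C1 and AKR1C2 do so with near copies of each other before the RefSeq starts used here. The AKR1C2 window lies inside its deposited locus, 5029968 to 5060225, which extends upstream of that start. Which start the AKR1C2 fragments came from was not tested. Over the 250 bases before the RefSeq start, AKR1C1 and AKR1C2 were identical at 245 of 254 aligned positions (96.5%), and AKR1C1 and AKR1C3 at 71.4% for one AKR1C3 start and 69.2% for the other. The part of each window before the first annotated exon base, up to 90 bases, reads 5′ to 3′ on the gene's strand in GRCh37 as follows, with nothing in capitals.
AKR1C1, plus strand, chr10:5005357-5005444: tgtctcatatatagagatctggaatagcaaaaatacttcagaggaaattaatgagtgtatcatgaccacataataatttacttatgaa
AKR1C2, minus strand, chr10:5046216-5046299: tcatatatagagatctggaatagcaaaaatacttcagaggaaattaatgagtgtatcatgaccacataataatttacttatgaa
AKR1C3, plus strand, chr10:5090723-5090812: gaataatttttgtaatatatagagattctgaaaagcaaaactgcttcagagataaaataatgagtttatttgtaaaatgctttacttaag
AKR1C3, plus strand, chr10:5136356-5136445: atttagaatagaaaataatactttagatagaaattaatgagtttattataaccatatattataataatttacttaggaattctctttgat
The 84 bases of AKR1C2 occur unbroken in the stretch of AKR1C1.

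**Figure D2:**
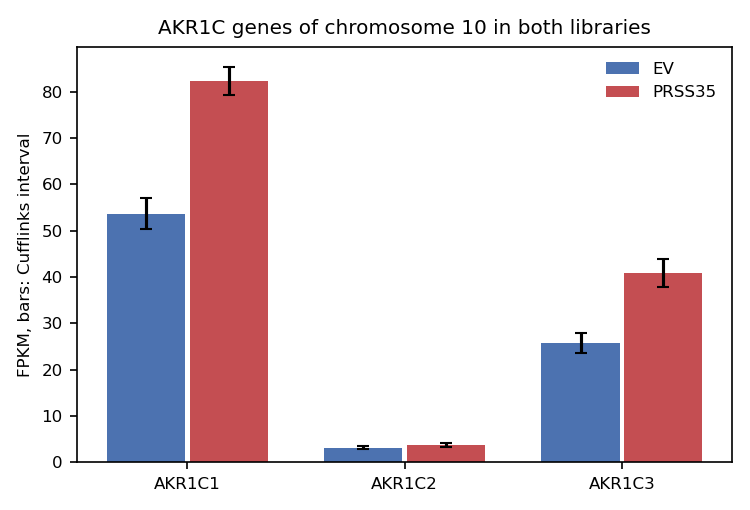
FPKM of AKR1C1, AKR1C2 and AKR1C3 in the EV and PRSS35 libraries; bars are the deposited values on an axis from 0 and lines the Cufflinks interval. AKR1C1 and AKR1C3 are higher in PRSS35 cells with intervals apart, at 82.3 against 53.6 and 40.9 against 25.8, while AKR1C2 stays below 4.22 in either library.

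The identity of the locus differed between the libraries for some members. Cufflinks gave a locus either the annotated identifier or that of a locus assembled from the reads of that library, and this kind was the same in both libraries for 6 members. It differed for NFE2L2, GCLM, HMOX1 and AKR1C1, which include both members with intervals apart. GCLM was assembled in EV and was higher there, whereas AKR1C1 was assembled in EV and was lower there. Of the 4, 2 had the higher value where the locus was assembled, and the intervals of NFE2L2 and HMOX1 overlapped. The locus of AKR1C3 was assembled in both libraries. None of the 10 members was in a locus that joined several gene names. The part of assembly in the values of GCLM and AKR1C1 was not tested.

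Other genes of the pathway were taken from a list of 45, of which 39 were expressed, and more of them were higher than lower. The intervals were apart with the higher value in PRSS35 cells for 15 of the 39 (38.5%) and with the lower value for 5 (12.8%), beside 25.2% and 15.5% of all expressed genes. These shares are not matched for level, and 30.0% of genes with a mean FPKM of 50 to 200 were apart and higher. FTH1, described below, is among the 15. The median log2 change of the 39 was 0.18, against 0.06 for all expressed genes, and that of all 45 was 0.12. Only FTH1, ferritin heavy chain, passed 2-fold, with an FPKM of 945.97 in EV and 2910.5 in PRSS35 cells. In PRSS35 cells, but not in EV, the FTH1 locus was joined with MIR611 and TMEM258, so its 2 values do not describe the same locus; FTL, the light chain, was at 5278 and 5242.

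Among 9 expressed regulators, 2 had intervals apart and higher and 2 apart and lower (22.2% each), beside 25.2% and 15.5% of all expressed genes. MAFK, a small MAF partner of NRF2, had 64.8 FPKM (61.7 to 68.0) in EV and 98.2 (93.5 to 102.8) in PRSS35 cells, and NFE2L1, the related factor of the proteasome response, had 44.8 and 52.3. OSGIN1, a growth inhibitor induced by oxidative stress, had the lowest log2 change of the list, -0.47 (interval -0.61 to -0.33), at 16.7 in EV and 11.7 in PRSS35 cells. SQSTM1, the autophagy receptor that competes with NRF2 for KEAP1, had 444.5 and 412.1. The KEAP1 ligase partners CUL3 and RBX1 and the MAF proteins MAFF and MAFG had overlapping intervals. The MAFG locus joined 2 gene names in both libraries, so its value is not that of MAFG alone. BACH1, the repressor of HMOX1, was under an FPKM of 1 in both libraries.

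The enzymes that make and use glutathione, thioredoxin and NADPH went both ways. GSR, which regenerates glutathione, had 21.96 FPKM (20.6 to 23.3) in EV and 30.6 (28.9 to 32.3) in PRSS35 cells, while GPX4, the lipid peroxide reductase, had 2994 (interval 2909 to 3078) and 2366 (interval 2278 to 2455). SLC7A11, the cystine importer, was low at 0.461 in EV and 0.602 in PRSS35 cells. Thioredoxin itself, TXN, was lower, at 197.8 and 173.3, and the peroxiredoxins PRDX1 and PRDX6 had overlapping intervals. The TXN locus was assembled in EV and annotated in PRSS35 cells. Of 6 NADPH enzymes, 3 had intervals apart and higher, beside 25.2% of all expressed genes. They were PGD and TALDO1 of the pentose phosphate pathway and IDH1, the cytosolic isocitrate dehydrogenase. PGD had 138.1 in EV and 158.7 in PRSS35 cells, TALDO1 had 162.1 and 205.9, and IDH1 had 48.8 and 59.8. The IDH1 locus was annotated in EV and assembled in PRSS35 cells.

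Carbonyl reductases turn reactive aldehydes and ketones into alcohols. CBR1, the cytosolic carbonyl reductase, had 120.3 FPKM (114.0 to 126.6) in EV and 236.1 (224.9 to 247.3) in PRSS35 cells. Its log2 change was 0.97 (interval 0.87 to 1.07), just under 2-fold; its locus was annotated in EV and assembled in PRSS35 cells, and the part of assembly in this value was not tested. Of the 8 carbonyl and xenobiotic enzymes on the list, 4 were expressed; 3 had intervals apart and higher, AKR1C3, CBR1 and EPHX1, and 0 lower, beside 25.2% and 15.5% of all expressed genes. The median log2 change of these enzymes was 0.42 for the 4 expressed and 0.09 for all 8. Among the 5 haem and iron genes, BLVRA, biliverdin reductase, which acts after haem oxygenase, had 50.6 in EV and 78.1 in PRSS35 cells. The BLVRA locus was also annotated in EV and assembled in PRSS35 cells. ABCC2, an efflux pump of glutathione conjugates, had 6.98 and 10.3. SOD1 and SOD2, the superoxide dismutases, were higher at log2 changes of 0.21 each.

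**Figure D3:**
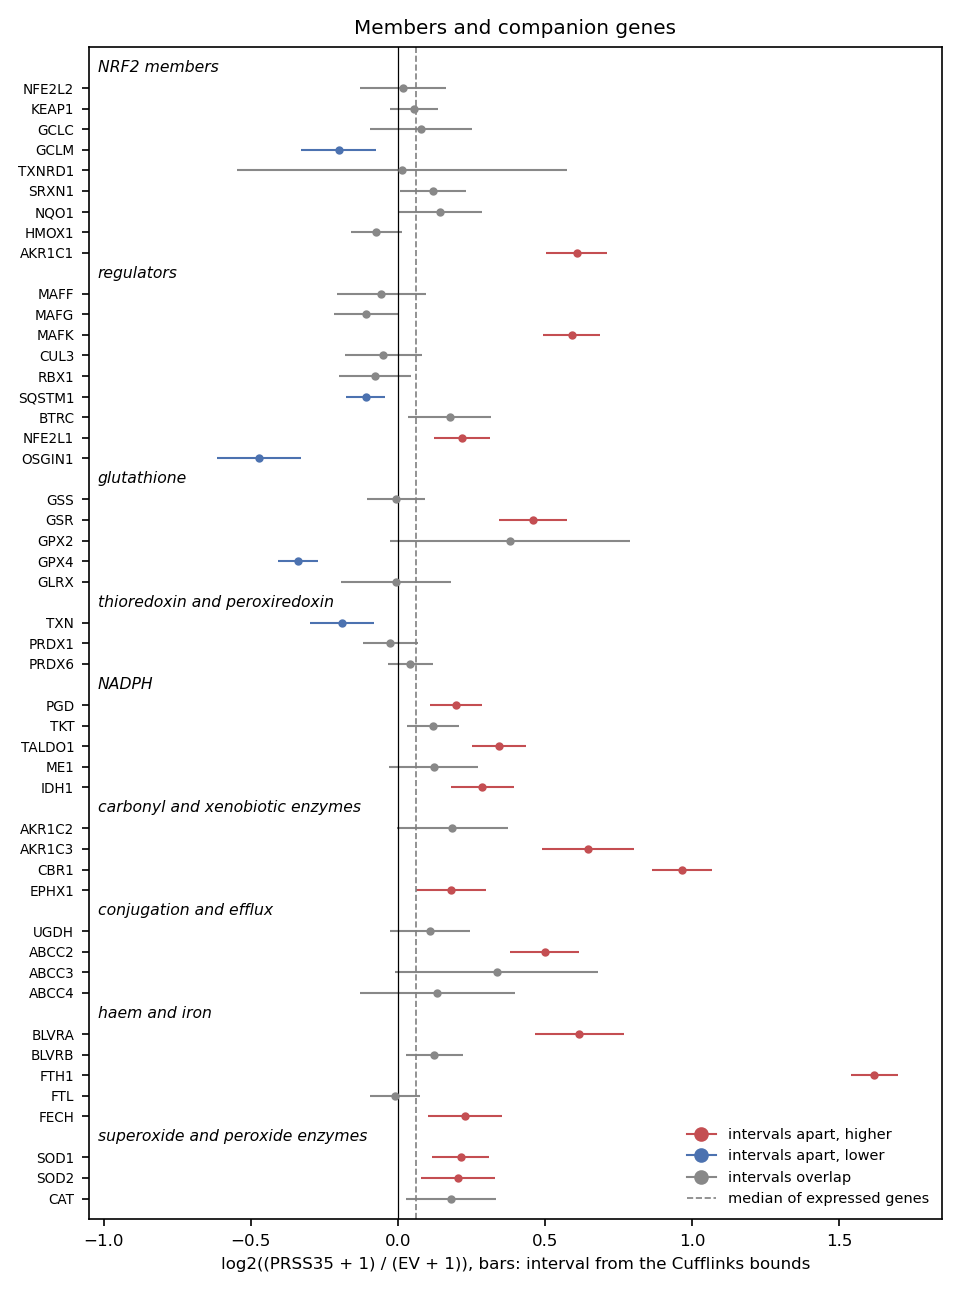
Log2((FPKM in PRSS35 + 1) / (FPKM in EV + 1)) of the 9 expressed members and 38 companion genes by role; bars are the interval computed from the Cufflinks bounds, colours tell whether the libraries' intervals were apart, and the dashed line is the median of expressed genes, 0.06. Most members lie around the dashed line, with AKR1C1 at 0.61 and GCLM at -0.20, and FTH1 at 1.62 comes from a joined locus.

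**Figure D4:**
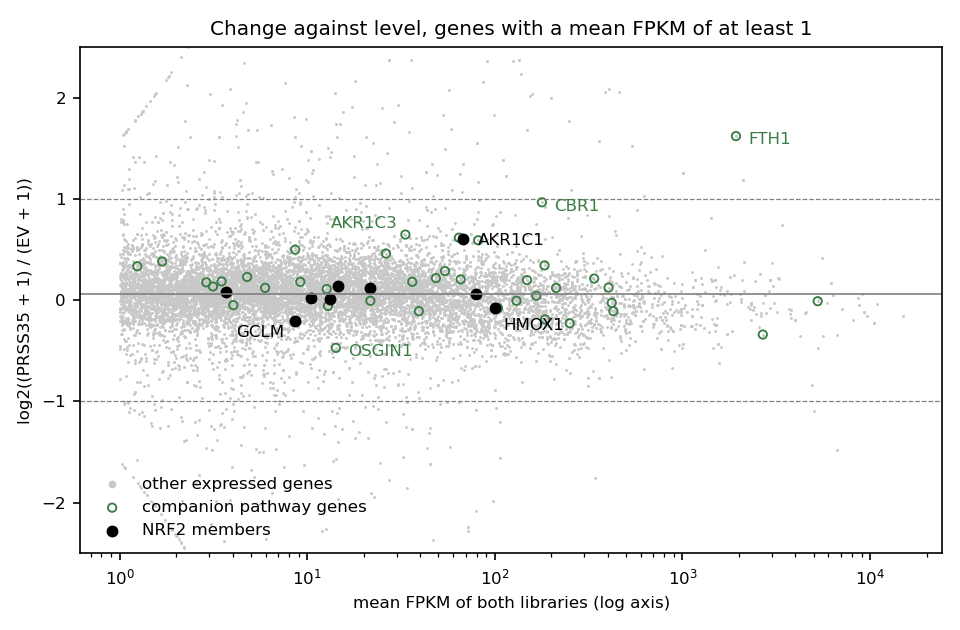
Log2 change against mean FPKM (log axis) of 11118 expressed genes, in grey, with the members in black and companion genes as green rings; the solid line is the median and dashed lines mark 2-fold, and 234 genes beyond 2.5 in either direction are outside the axes. All 9 members lie between the dashed lines, 8 of them between -0.20 and 0.14 and AKR1C1 at 0.61.

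The identity of the cells and the labels bear on all of these values. PRSS35 had an FPKM of 0.643 in EV and 1836 in PRSS35 cells, as labelled. Of 6 hepatocyte markers, 4 had intervals apart with the higher value in PRSS35 cells, 1 with the lower and 1 overlapped. Among all expressed genes, 25.2% were apart and higher and 15.5% apart and lower. The markers' summed FPKM was 3375 in EV and 5136 in PRSS35 cells, of which SERPINA1 held 2528 and 4239. APOA1 was the lower marker, at 576.2 and 493.6. ALB and TTR were low, with no value above 5.21. KRT8 and KRT18, keratins of hepatocytes and other simple epithelia, were at 2315 or above in both libraries. KRT18 had intervals apart and lower, at 2781 in EV and 2315 in PRSS35 cells, while those of KRT8 overlapped. Of the markers of other cell types, PTPRC, CD3E, DCN and LUM were listed at 0 in both, and the endothelial genes summed to at most 0.0373. The stellate and fibroblast genes COL1A1 and PDGFRB had 0.699 and 1.02 in EV and 0.754 and 1.27 in PRSS35 cells with overlapping intervals. The leukocyte marker CD68 was high, at 297.3 in EV and 277.9 in PRSS35 cells, but was read at a locus joined with MPDU1. AKR1C1 and CBR1 are also liver enzymes and were higher, as were 4 of the 6 hepatocyte markers. The part of the markers in their values was not tested. Summed FPKM was 2469030 for EV and 1508530 for PRSS35. Loci without a gene name held 65.3% of that sum in EV and 44.9% in PRSS35 cells. Dividing by the sum moved the median log2 change of expressed genes to 0.68. Under it, 1273 genes were 2-fold higher and 180 lower, in place of 303 and 276. Members are read against the median gene for this reason. The bounds correspond to between 332.4 fragments (GCLC) and 4204 fragments (HMOX1) for the expressed members in EV, and in PRSS35 cells to 23.4 for TXNRD1 and between 353.5 and 2854 for the others. These implied fragments are not read counts, since the bounds also hold assignment error. TXNRD1 had 1159 in EV at nearly the same FPKM. AKR1C1 had 1027 in EV and 2854 in PRSS35 cells, at an FPKM ratio of 1.53.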

How the data were processed

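RNA-seq of PLC cells with EV or PRSS35 gave 1 library per group. The authors aligned reads to hg19 with TopHat2 2.1.0 and deposited FPKM per locus with lower and upper bounds from Cufflinks (the submitters' processing notes name Cuffdiff 2.2.1); the gene annotation and options are not given in the sources used here. Loci off the main chromosomes, all at 0, were left out. Each name in a comma-joined locus received that locus's FPKM, and loci of one name were summed. Log2 changes used 1 FPKM as the pseudocount, and the upper bound was read as lying 2 SD above the value. The square of 2 times FPKM over that gap gives the implied fragments. No test was possible. Call rules were 2-fold, 1.5-fold and intervals apart. The 2-fold and intervals-apart rules were run on simulated data, and the 1.5-fold rule was not. That simulation held counting error only, so it says nothing about differences between cultures or in locus assembly. Named were the 10 members, AKR1C2, AKR1C3, AKR1B15, PRSS35 and, of the companion genes, those past 2-fold and the 3 highest and 3 lowest; other companion genes were named after their values were seen, and 1 gene that the rule names is counted but not reported here. Members and lists were chosen with earlier results of these data known. Genes were placed with GENCODE v44lift37 on GRCh37. Alternatives concerned pseudocount, scaling, joined or repeated loci, and filters. Software was Python 3.11.15, numpy 2.4.6 and pandas 2.3.3.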

Additional observations from a re-analysis of the deposited data

How the results depend on the processing

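The result that 0 members were lower by 2-fold did not change under any alternative run for it. Loci without a gene name held 65.3% of the summed FPKM in EV and 44.9% in PRSS35 cells. Scaling each library to this sum moved the median of expressed genes from a log2 change of 0.06 to 0.68. Under it, the median of the members was 0.67 and that of the companion genes at any level 0.73; 1 member (AKR1C1, at 1.31) was then 2-fold higher, 8 members had intervals apart, 8 companion genes passed 2-fold, and GCLM turned from -0.20 to 0.44. This scaling also moved each other member, as it moved the median gene. Centred on the median gene or scaled by the upper quartile, 3 members had intervals apart, with HMOX1 lower at -0.13 and -0.14. With a 1.5-fold threshold, 1 member was higher and 5 companion genes passed. With joined loci left out, 0 companion genes passed 2-fold, since FTH1 was removed. Among genes with the same kind of locus in both libraries, a choice made after seeing the data, 0 members had intervals apart, since GCLM and AKR1C1 were left out. With pseudocounts of 0.1 and 5 FPKM, centring, scaling by the upper quartile, only the top locus of each name, and joined loci left out, all 9 members stayed within their own interval of the value reported. The number of genes 2-fold higher and lower, 303 and 276, was 192 and 162 with a pseudocount of 5 FPKM, 183 and 184 without joined loci and 206 and 177 with the same kind of locus. No paired analysis was possible because each group has 1 library. Depth limits AKR1B10, at 0 and 3 fragments. The cause of the wide bounds of TXNRD1 in PRSS35 cells was not tested.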

Other observations

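Genes of the aldo-keto reductase (AKR), carbonyl reductase (CBR) and aldehyde dehydrogenase (ALDH) families, a set chosen after values had been seen, included 20 expressed names. Their intervals were apart with the higher value in PRSS35 cells for 10 of the 20 and with the lower value for 3, beside 25.2% and 15.5% of all expressed genes. One of the 3 is AKR7A3, whose locus was joined in EV. ALDH7A1, a lysine-degradation dehydrogenase, had the largest higher value, with an FPKM of 10.9 in EV and 33.7 in PRSS35 cells, and its locus was annotated in EV and assembled in PRSS35 cells. ALDH2, the mitochondrial acetaldehyde dehydrogenase, had 71.6 and 109.7, and ALDH18A1, of proline synthesis, had 46.5 and 68.9. AKR1B1, aldose reductase, was lower at 257.8 and 221.7. The loci of ALDH2 and AKR1B1 were annotated in EV and assembled in PRSS35 cells, and the part of assembly in their values was not tested. AKR7A3 shared a joined locus with AKR7A2 in EV only, so its values of 121.0 and 0.165 do not describe the same locus.

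Most expressed genes around AKR1C1 and AKR1C3 had overlapping intervals, as did 6588 of all 11118 expressed genes. Within 1 Mb of AKR1C1, 6 expressed genes outside the AKR1C cluster had log2 changes from -0.11 to 0.22. Intervals were apart for 1 of the 6, FBXO18, which was higher, where 25.2% of all expressed genes were apart and higher. Around CBR1, 7 expressed genes had log2 changes from -0.15 to 0.54, with 5 intervals apart and higher and 0 lower, beside 25.2% and 15.5% of all expressed genes, and CBR1 at 0.97 was above all of them.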
